A study of Mus musculus with 12 samples.

Results

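Simple sequence repeats are runs of a short unit in tandem, here named by that unit, so that (CAG)n stands for CAG repeated. They were taken as the names that the deposited repeat table places in the class of simple repeats, 264 of its 1387 repeat names, with units of 1 to 6 bases. RNA came from TT2 mouse embryonic stem (ES) cells of 2 genotypes, wild type (WT) and a double knockout of Rlf and Zfp292 (DKO), which encode zinc finger proteins. Each genotype was sampled in medium with LIF, serum replacement and a little FBS (serum/LIF), and after LIF had been withdrawn and 5 µM retinoic acid (RA), a differentiation signal, added for 72 hours. Changes with RA below are thus changes with added RA and withdrawn LIF together, which this design cannot tell apart. The 12 libraries formed 4 groups of 3, called biological replicates in the labels, which do not say whether they came from separate cultures or clones. The sample records list the molecule as genomic DNA, whereas the extraction protocol describes total RNA; no value here measures DNA in the libraries.

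Microsatellites mutate by slippage during replication and are kept in check by mismatch repair. In RNA they lie mostly in introns and untranslated regions, where CA, CU and CUG runs bind splicing regulators, and long CAG, CTG or CGG runs in certain genes cause repeat expansion disease. The unit TTAGGG forms the telomeres, and CGG runs are common in CpG islands near promoters. Each name sums reads over all copies of its unit in the genome. By the naming convention of repeat annotation the unit is read on the forward strand of the chromosome, so (CAG)n and (CTG)n are different sets of copies of the same double-stranded repeat.

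The runs themselves can be seen in the transcripts. The following 2 stretches of 30 bases show what a copy looks like for (ATAAG)n, which rose most with RA, and for (CTG)n, the most abundant name. They were read from GENCODE M21 transcripts on GRCm38, the assembly that the submitters' build mm10 names, 5′ to 3′ on the transcript, with whole copies of the unit in capitals. For Prrc2a, transcribed from the reverse strand, the unit reads as the reverse complement, CAG. In each case the gene is the one with the highest level among the genes holding such a tract within 1 exon.

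Peg10, holding (ATAAG)n, 3′ UTR, exon 3, chr6:4759702-4759731, + strand: ttaggATAAGataggATAAGATAAGATAAG

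Prrc2a, holding (CTG)n, coding exon 14, chr17:35158137-35158166, - strand: agCAGCAGCAGCAGcaaCAGCAGtggCAGc

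Peg10 is an imprinted gene of retrotransposon origin that the placenta needs, and Prrc2a encodes a proline-rich protein. Neither tract is a perfect run. Of the 30 bases, 27 matched a perfect tandem in Peg10 and in Prrc2a.

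The libraries held 2164824 to 3121854 reads in repeats. Of these, 371358 to 451373 per library fell in simple repeats, which limits counting error to the rarer names. Rlf and Zfp292 had 0 to 3 reads each in every DKO library and 2463 to 5522 in WT. In replicate 2 of WT after RA, repeats of the rRNA class made up 41.7% of all reads in repeats, against 4.14% to 7.28% in the other libraries. With the rRNA class left out, simple repeats took 17.5% ± 0.457 (SD, n = 3) of repeat reads in WT and 17.8% ± 0.487 in DKO with serum/LIF, and 20.9% ± 0.134 and 20.7% ± 0.163 after RA. The share was higher in each RA library than in any serum/LIF library. It sums all names, so single abundant names weigh on it. The mean summed level went from 374251 to 443278 normalized counts with RA in WT and from 392036 to 436399 in DKO. Within it, (ATAAG)n alone went from 815 to 842 per library to 18261 to 18882 in WT. In DKO it went from 1979 to 2399 to 20250 to 21424. General ES cell markers summed to normalized counts of 93335 to 109532 per library in serum/LIF and 4201 to 7137 after RA. Fibroblast markers summed to 7315 to 7412 in WT and 22162 to 23529 in DKO with serum/LIF and to 49229 to 50935 and 63154 to 65617 after RA, and no marker on these lists was at 0 in a whole group. Of the 9 fibroblast markers, 8 rose and 1 fell with RA in each genotype (limma adjusted p under 0.05). Over all tested genes 41.4% rose and 39.2% fell in WT, and 40.2% and 38.2% did in DKO. The part of cell types other than ES cells in the repeat results was not tested.

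Trinucleotide units made up 40.3% of the summed level of simple repeats although only 20 names have such a unit. Units of 5 bases, with 143 names, made up 12.1%, and the 10 most abundant names together held 51.0%. The most abundant was (CTG)n, with a mean of 40583 normalized counts over the 12 libraries, followed by the dinucleotide (TG)n with 32020, the mononucleotide (T)n with 24904 and (CAG)n with 20712. A name with many or long copies collects more reads, so these levels are not per length. Of the 264 names, 203 reached a normalized count of 10 in at least 3 libraries and were tested; the other 61 had means of 0.884 to 7.72 and were not. The tested names just above this limit were (CCTTG)n at a mean of 6.83 and (CAACG)n at 8.07, and the untested names just below were (CATGC)n at 7.72 and (AGTAG)n at 6.21.

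RA changed many simple repeats in WT cells, and most of the called ones rose. Of 203 tested, 85 were higher and 26 lower at an adjusted p under 0.05 (limma over all 1170 tested repeats), with a median log2 fold change of 0.16. Over all tested repeats, 24.7% were called higher and 25.3% lower, with a median of −0.01. In DKO cells RA left 70 higher and 31 lower with a median of 0.11, where all tested repeats gave 23.4% higher, 22.9% lower and a median of 0.01. These counts are relative to the other repeats. With the size factors of the gene table in place of those of the repeat table, the median of all repeats moved by −0.33 in WT and −0.25 in DKO, and simple repeats then split into 50 higher and 75 lower in WT and 43 higher and 67 lower in DKO. On that scaling the median of simple repeats was −0.18 in WT against −0.34 for all repeats, and −0.14 against −0.24 in DKO.

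The strongest RA response was that of (ATAAG)n. Its normalized counts in serum/LIF were 842, 815 and 821 in WT and 1979, 2399 and 2189 in DKO. After RA they were 18882, 18261 and 18282 in WT and 21424, 20250 and 20808 in DKO. The 4 groups did not overlap. Libraries within a group differed far less than the RA groups did from the serum/LIF groups, but WT and DKO after RA lay close to each other. RA raised it 22.4-fold in WT (log2 fold change 4.48 ± 0.05 SE, limma adjusted p = 1.85e-28, n = 3 against 3) and 9.52-fold in DKO (3.25 ± 0.05, adjusted p = 1.32e-25). In serum/LIF it was 2.65-fold higher in DKO than in WT (1.40 ± 0.05, adjusted p = 9.96e-17), and after RA 1.13-fold (0.17 ± 0.05, adjusted p = 0.0189). The effect of RA was smaller in DKO, by 1.23 ± 0.07 on the log2 scale (limma interaction, adjusted p = 1.39e-12). The call between genotypes after RA was lost without replicate 2 or 3 of WT after RA, without replicate 1 or 3 of DKO after RA, and with plain empirical Bayes settings; the others held under the alternatives tried.

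A single gene carries this repeat in annotated transcripts. In a scan for stretches of 40 bases with at least 34 matching a perfect tandem of the unit on either strand, Peg10 was the only gene with an ATAAG tract, the stretch shown above. Peg10 itself had 13561 ± 240 (SD, n = 3) normalized counts in WT and 36800 ± 683 in DKO with serum/LIF, and 233039 ± 22669 and 296087 ± 2221 after RA, in the gene table, which has its own size factors. Its log2 fold changes were 1.44 ± 0.05 (SE) for DKO against WT in serum/LIF, 0.35 ± 0.05 after RA, 4.10 ± 0.05 for RA in WT and 3.01 ± 0.05 for RA in DKO, each called by limma in the gene table with adjusted p from 1.05e-24 to 2.72e-06. As reads, without any scaling, (ATAAG)n came to 6.78% ± 0.169 of Peg10 reads in WT and 6.54% ± 0.844 in DKO with serum/LIF, and to 7.04% ± 0.477 and 6.50% ± 0.203 after RA (SD, n = 3). The ratio lay between 5.86% and 7.53% in all 12 libraries, while Peg10 reads ran from 12693 to 333535. Among 8929 genes with a mean of 500 or more, Peg10 had the smallest SD, 0.198, of its log2 difference to (ATAAG)n over the 12 libraries. By Pearson correlation of log2 values, which mostly reflects the 4 group means, its rank was 5 (r = 0.998), and App had the highest r (0.999). The complementary name (CTTAT)n had 0 to 5.06 normalized counts per library. The 4 trophoblast markers, genes of the cell type in which Peg10 is best known, summed to 632 to 662 in WT and 1944 to 2550 in DKO with serum/LIF and to 13012 to 13820 and 13037 to 13610 after RA. With RA, 3 of the 4 were called higher and 1 lower in WT, and 3 higher and 0 lower in DKO. All 4 endoderm markers were called higher with RA in both genotypes. Over all tested genes 41.4% rose and 39.2% fell in WT, and 40.2% and 38.2% did in DKO. The part of either cell type in the result was not tested. In bulk RNA, more cells of a type and more RNA per cell cannot be told apart.

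**Figure D1:**
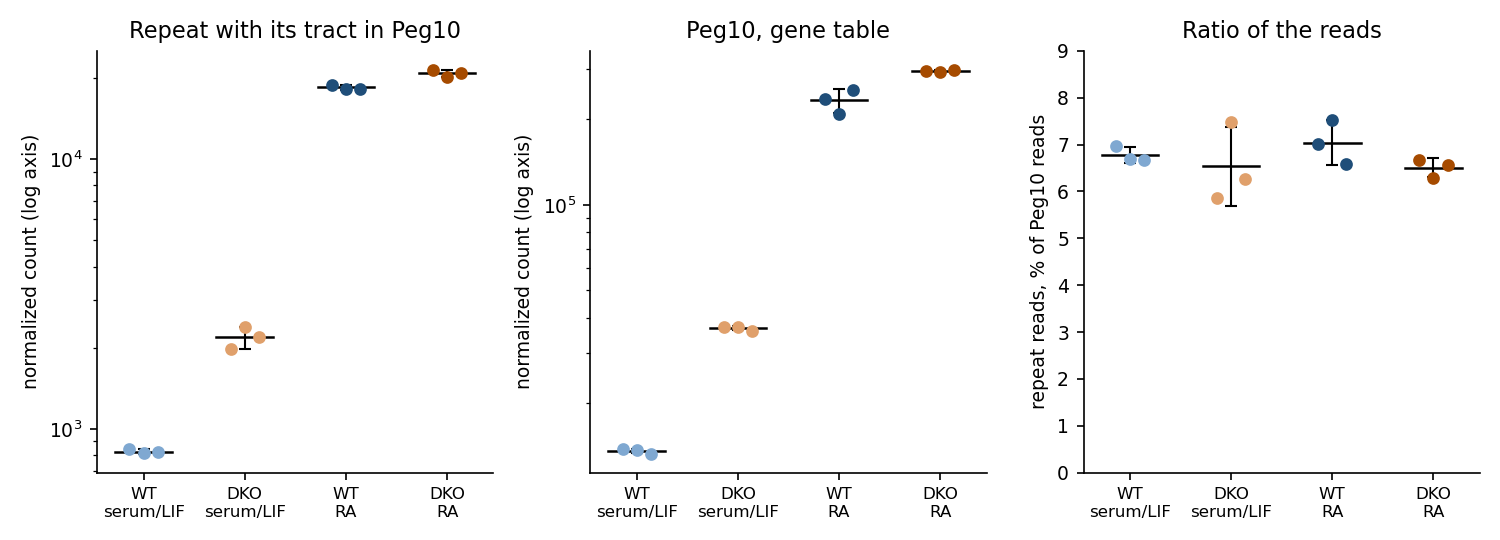
Normalized counts of (ATAAG)n (left) and of Peg10 (middle) on log axes, and (ATAAG)n reads as a percent of Peg10 reads (right), in the 4 groups; points are libraries, bars the mean and SD of 3. Both levels climb from WT in serum/LIF through DKO in serum/LIF to the RA groups, while the ratio stays between 5.86% and 7.53%.

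A tract in only 1 gene was uncommon in this scan. The scan took both strands, so complementary names share the same count, and the genes that belong to each name can be fewer. Of the 203 tested names, 17 had a tract in no gene of the gene table, 18 in 1 gene, 57 in 2 to 9 and 111 in 10 or more, with a median of 14 genes and up to 1901. For (CTG)n the gene shown above is 1 of 240 with a tract on either strand, a count shared with (CAG)n. Prrc2a rose by 0.59 in WT and 0.60 in DKO while (CTG)n, at −0.27 ± 0.12 and −0.32 ± 0.12, was not called (limma adjusted p = 0.0962 and 0.0594). Introns and unannotated transcripts were not scanned.

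(CACCAT)n was the other abundant name with a change of several fold. It had 1831, 1790 and 2001 normalized counts in WT and 2365, 2026 and 2482 in DKO with serum/LIF, and 9978, 9016 and 11742 in WT and 13249, 12901 and 12869 in DKO after RA. All RA libraries lay above all serum/LIF libraries. The rise was 5.47-fold in WT (log2 fold change 2.44 ± 0.10, limma adjusted p = 1.92e-08) and 5.68-fold in DKO (2.51 ± 0.10, adjusted p = 2.17e-08), and genotype was not called in either condition. Its complement (ATGGTG)n, with a mean of 249 normalized counts, was not called for RA (0.20 in WT and 0.03 in DKO).

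The related (CCA)n, at a higher level, was also higher in each RA library than in any serum/LIF library. It had 5693, 6006 and 6257 normalized counts in WT with serum/LIF and 16408, 14472 and 16447 after RA, with 6710, 6111 and 7299 against 18355, 18340 and 18545 in DKO. RA raised it 2.64-fold in WT (1.40 ± 0.07, limma adjusted p = 4.1e-09) and 2.75-fold in DKO (1.46 ± 0.07, adjusted p = 4.08e-09), whereas its complement (TGG)n was not called in either genotype (0.05 and −0.21). Of the 88 genes of the gene table with a CCA tract on either strand, Peg10 had the highest level, and over the 12 libraries its log2 value correlated at r = 0.975 with (CCA)n and at −0.276 with (TGG)n, both mostly a reflection of the 4 group means. The part of Peg10 in the rise of (CCA)n was not tested. Lower-level names with large rises were (CATCC)n, at 2.95 ± 0.21 in WT and 2.28 ± 0.21 in DKO, and (CAA)n, at 1.15 ± 0.06 and 0.80 ± 0.06. (CATCC)n had 19.2 to 23.4 normalized counts in WT with serum/LIF and 150 to 191 after RA.

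Among the names called lower with RA that had a mean of at least 50 in serum/LIF, (ATAGG)n and (CAT)n had the largest falls in both genotypes. Below that level, (CGCTG)n, at −0.91 in WT, and (CAACG)n and (TAAG)n, at −1.74 and −1.35 in DKO, were also called. (ATAGG)n had 230, 242 and 217 normalized counts in WT and 190, 200 and 185 in DKO with serum/LIF, and 58.7, 69.8 and 54.0 in WT and 94.7, 104 and 82.8 in DKO after RA. RA lowered it by 1.91 ± 0.15 on the log2 scale in WT and by 1.03 ± 0.15 in DKO (limma adjusted p = 4.14e-11 and 2.02e-06), and after RA it was 1.54-fold higher in DKO than in WT (0.62 ± 0.15, adjusted p = 0.00481). No gene of the annotation had an ATAGG tract by the scan described for ATAAG. By Pearson correlation of log2 values over the 12 libraries, which form 4 groups and therefore mostly reflect group means, the genes most like it were Rinl (r = 0.992), Dmrt1 (0.991) and B3gnt7 (0.990).

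(CAT)n had 5491, 4910 and 6652 normalized counts in WT with serum/LIF and 3606, 2634 and 3240 after RA, and in DKO 5458, 5515 and 5291 against 2769, 2572 and 3055. It fell by 0.85 ± 0.14 in WT and by 0.96 ± 0.14 in DKO on the log2 scale (limma adjusted p = 0.00079 and 0.000451). Its complement (ATG)n fell less, by 0.34 in WT and by 0.27 in DKO, and was also called. (GAA)n, the unit expanded in Friedreich ataxia, fell by 0.44 ± 0.05 in both genotypes (adjusted p = 1.25e-08 and 1.64e-08), while its complement (TTC)n was not called. The mononucleotide (T)n fell by 0.29 ± 0.02 in WT and by 0.39 ± 0.02 in DKO.

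Names called higher with RA were found at every base content. Of the 85 in WT, 29 have a CpG in the tandem and 56 do not. Units that form a CpG in tandem, 52 names of which 39 were tested, were mostly higher after RA: 29 higher and 2 lower in WT with a median log2 fold change of 0.83, and 24 higher and 4 lower in DKO with a median of 0.52. The 164 tested names without CpG gave 56 higher and 24 lower in WT with a median of 0.08, and 46 higher and 27 lower in DKO with a median of 0.03. Of these, the 62 with more than 50% GC lay in between, with 25 higher and 1 lower in WT (median 0.31) and 24 higher and 5 lower in DKO (median 0.24). Of the 15 names with 0% GC, 6 were higher and 4 lower in WT, and of the 56 with some but under 50% GC, 15 were higher and 10 lower. With the size factors of the gene table the CpG names still split 24 higher to 6 lower in WT (median 0.49) and 18 to 5 in DKO (median 0.25). No test was made of the difference between these groups of names.

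**Figure D2:**
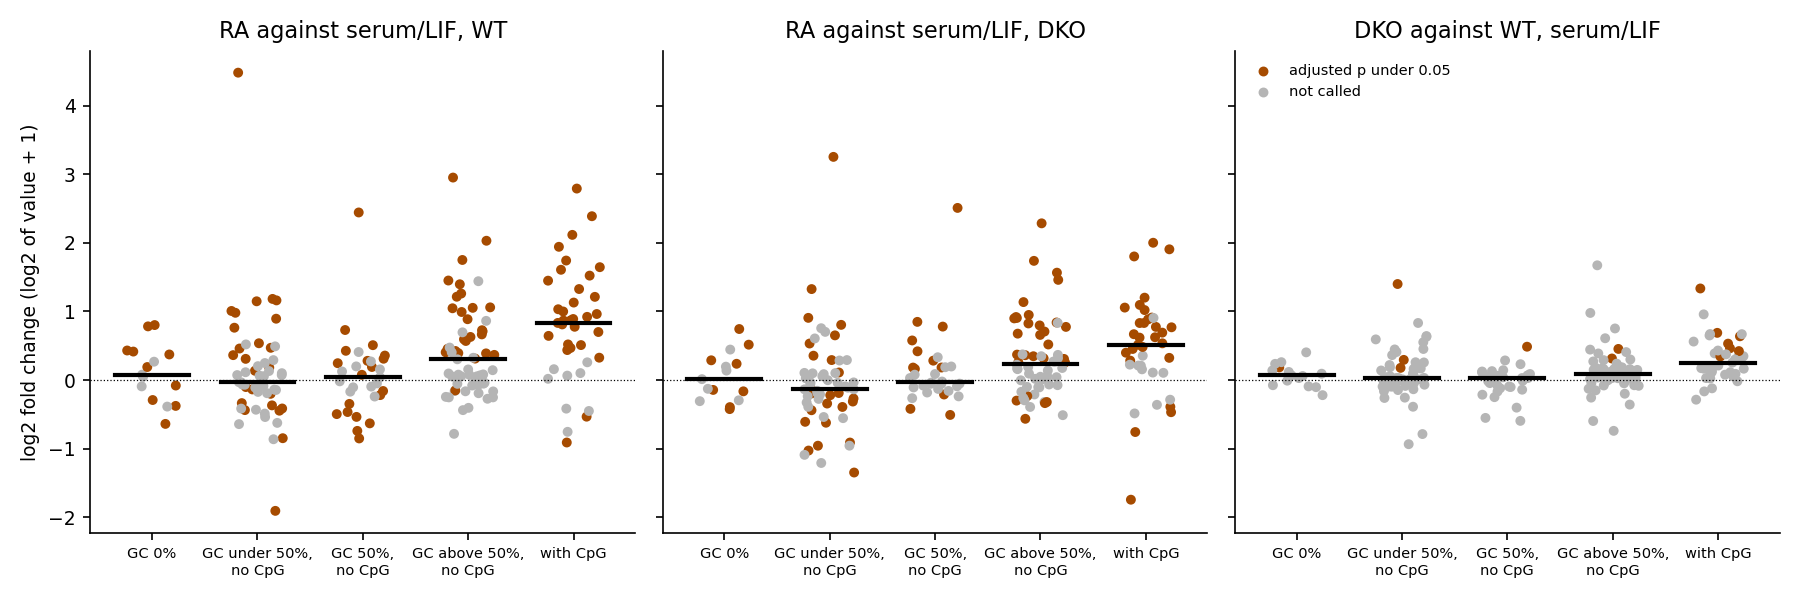
Log2 fold changes of the 203 tested simple repeats by base content of the unit, for RA in WT, RA in DKO and DKO against WT in serum/LIF; each point is a repeat name, coloured where its adjusted p was under 0.05, and lines are medians. The names with CpG have medians of 0.83, 0.52 and 0.25, and the single point far above the others for RA is (ATAAG)n.

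Unit length gave a less ordered picture. All 6 dinucleotide names were higher after RA in WT and 5 of 6 in DKO, with medians of 0.30 and 0.18, but on the scaling of the gene table (CA)n, (TC)n and (GA)n changed sign in both genotypes, (TG)n in WT and (TA)n in DKO. Of 20 trinucleotide names, 12 rose and 3 fell in WT, and 8 rose and 4 fell in DKO. Of 52 tested names of 4 bases, 14 rose and 16 fell in WT and 13 rose and 12 fell in DKO. The 90 tested names of 5 bases gave 36 to 3 and 28 to 11, and the 31 of 6 bases 17 to 2 and 16 to 2. Over all tested repeats 24.7% rose and 25.3% fell in WT, and 23.4% and 22.9% did in DKO, shares near those of the 4-base names. Length and CpG were not separated: 16 of the 36 rises of 5-base names in WT were among the 22 with CpG. The 4 mononucleotide names gave 0 rises and 2 falls in each genotype, (T)n and (A)n; the fall of (A)n in WT was −0.08 and was not called by edgeR or DESeq2.

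Among the CpG names, (CGG)n and (CCG)n, found in many 5′ UTRs and CpG islands, were the most abundant. (CGG)n had 13080, 10380 and 15026 normalized counts in WT and 16403, 14876 and 18768 in DKO with serum/LIF, and 20840, 23004 and 21414 in WT and 21414, 22455 and 19925 in DKO after RA. In serum/LIF the libraries of each genotype were spread widely and the genotypes overlapped. RA raised (CGG)n 1.70-fold in WT (0.78 ± 0.14, limma adjusted p = 0.00128) and was not called in DKO (0.35 ± 0.14, adjusted p = 0.0651); the interaction was not called either (adjusted p = 0.286). (CCG)n rose by 0.87 ± 0.12 in WT and 0.48 ± 0.12 in DKO, both called. Larger rises stood at lower levels: (CGGG)n had 37.4 to 44.2 normalized counts in WT with serum/LIF and 182 to 247 after RA (2.39 ± 0.21 in WT, 2.00 ± 0.21 in DKO), and (GCGTG)n had 5.03 to 7.68 and 34.9 to 55.6 (2.79 ± 0.37 and 1.80 ± 0.37). The dinucleotide (CG)n itself had 35.2 to 63.2 and 73.3 to 81.4 (0.64 ± 0.23 and 0.83 ± 0.23).

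The level of GC-rich sequence as a whole was also higher after RA. Summed over the 52 CpG names, normalized counts were 33255, 28677 and 38092 in WT and 40845, 37514 and 45942 in DKO with serum/LIF, and 55828, 59700 and 56015 in WT and 56149, 57184 and 52382 in DKO after RA. The low-complexity class GC_rich, made of GC-rich stretches without a unit, had 25366, 20553 and 29653 in WT and 32233, 29445 and 37221 in DKO with serum/LIF, and after RA 57864, 64875 and 57383 in WT and 58400, 56172 and 51082 in DKO. Within serum/LIF the order of the 3 libraries was the same for both measures in each genotype, with replicate 2 lowest and replicate 3 highest. After RA the orders differed: in WT replicate 2 was highest by both measures, but the lowest was replicate 1 for the CpG sum and replicate 3 for GC_rich, and in DKO replicate 3 was lowest by both, but the highest was replicate 2 for the CpG sum and replicate 1 for GC_rich. With the log2 GC_rich value of each library as a covariate, an alternative added after these values were seen, the median of the CpG names fell from 0.83 to 0.10 for RA in WT and from 0.52 to 0.12 in DKO. The calls over all simple repeats then came to 24 for RA in WT and 44 in DKO. GC_rich itself differs between the conditions, so that fit cannot tell RA and GC content apart. The C-rich class also rose, from 23926 to 51264 in WT and from 28015 to 49629 in DKO.

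**Figure D3:**
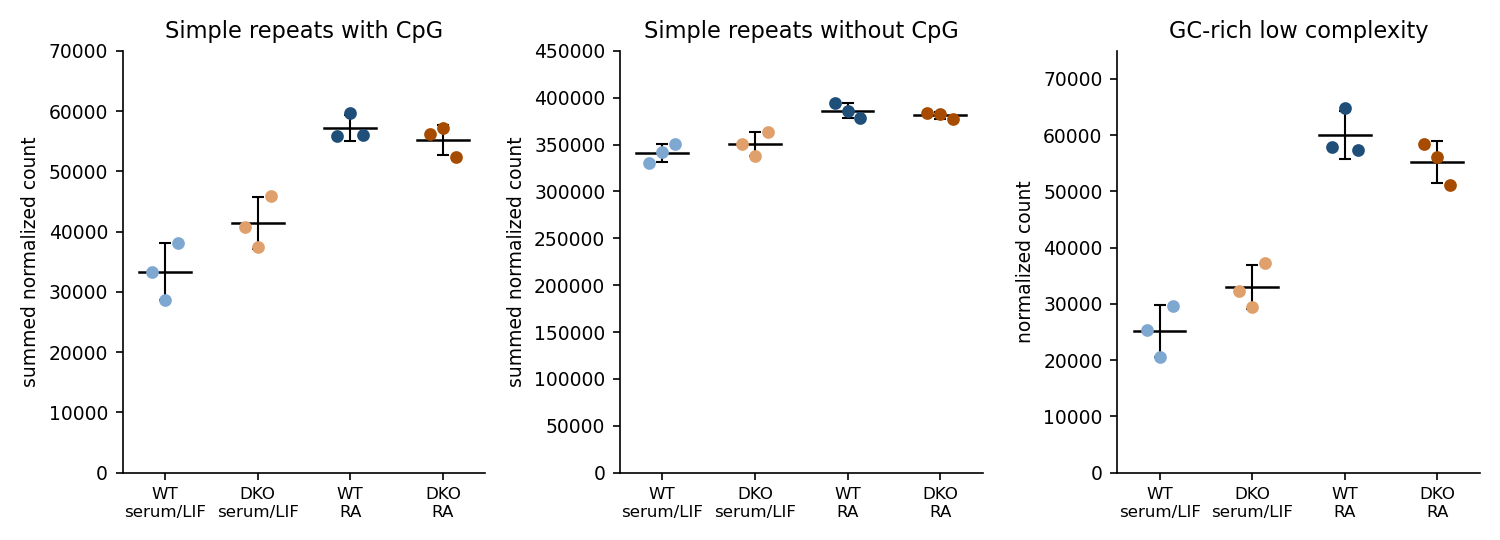
Summed normalized counts of simple repeats with CpG (left) and without CpG (middle), and the normalized count of the GC-rich low-complexity class (right), in the 4 groups; points are libraries, bars the mean and SD of 3. Both the CpG sum and the GC-rich class are higher in every RA library than in any serum/LIF library, from 28677 and 20553 in the lowest serum/LIF library to 59700 and 64875 in the highest RA library.

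Complementary names were then set side by side. Of 146 motifs, 118 had both complementary names, and in 87 pairs both were tested. The more abundant name had a median of 2.81 times the level of the other, from 1.07 to 105 times. For RA in WT, both names were called in the same direction in 30 pairs and in opposite directions in 2, 1 name was called in 34 pairs and none in 21. In DKO these numbers were 22, 5, 35 and 25. The opposite pairs in WT were (TTTA)n, at −0.38, with (TAAA)n, at 0.37, and (TCCC)n, at −0.15, with (GGGA)n, at 0.39. Both names were called higher in WT for (CGG)n with (CCG)n and for (CCCG)n, at 1.74, with (CGGG)n, at 2.39. The disease unit CAG was unequal: (CAG)n rose by 0.31 ± 0.08 in WT and 0.26 ± 0.08 in DKO (limma adjusted p = 0.013 and 0.0344) while (CTG)n was not called, and on the scaling of the gene table the change of (CAG)n in WT was −0.02 and not called. In DKO the call of (CAG)n was lost in 9 of 25 alternatives, that scaling among them.

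**Figure D4:**
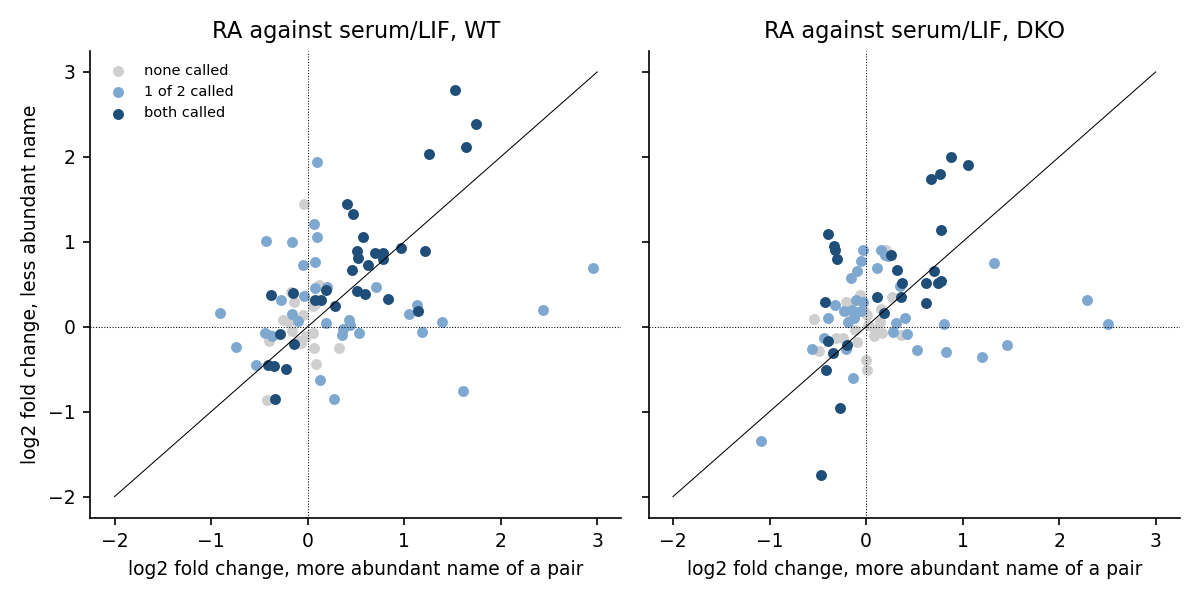
Log2 fold changes with RA of the more abundant (horizontal) and the less abundant name (vertical) of the 87 complementary pairs, in WT (left) and DKO (right); colours show how many of the 2 names were called and the diagonal marks equal change. Pairs with both names called lie mostly in the upper right, 30 of them in the same direction in WT against 2 in opposite directions, and points along the axes are pairs in which 1 name changed.

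In serum/LIF, few simple repeats differed between the genotypes. Of 203 tested, 14 (6.90%) were higher in DKO and 0 lower (limma; 189 did not pass). The share called higher was near that among all tested repeats, 5.56%, of which 4.27% were called lower. Their median change was 0.08 on the log2 scale, against 0.01 for all. At an unadjusted p under 0.05, limma gave 41 higher and 6 lower. edgeR gave 11 higher and 1 lower, and DESeq2 16 higher and 1 lower. Of the 14, 7 have a CpG. They were (CCCG)n with a change of 0.69, (CGGGG)n with 0.46, (CCGCG)n with 0.64, (CACGC)n with 0.53, (CGAAG)n with 0.42, (CGGA)n with 0.34 and (TTCGGG)n with 1.34. Of these calls, that of (CACGC)n (limma adjusted p = 0.0464) was lost in 18 of 25 alternatives, edgeR and DESeq2 among them, those of (CCGCG)n and (CGAAG)n in 7 each and that of (CCCG)n in 4. The 39 CpG names had a median of 0.25. (CCCG)n had 478, 365 and 532 normalized counts in WT and 814, 632 and 756 in DKO, without overlap, a rise of 0.69 ± 0.15 (limma adjusted p = 0.0187). (TTCGGG)n, at 1.34 ± 0.39, rests on 9.7 ± 5.9 (SD, n = 3) normalized counts in WT against 23.2 ± 5.6 in DKO. With the GC_rich covariate 2 names were called in all, 1 higher and 1 lower, 0 of them with CpG, and the median of the CpG names was 0.03. The count of 14 fell to 7 without replicate 2 of WT in serum/LIF, to 5 without replicate 1 of DKO in serum/LIF and to 4 without replicate 3 of DKO in serum/LIF.

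Outside the CpG names, (CAA)n was called besides (ATAAG)n. It had 2712 ± 276 (SD, n = 3) normalized counts in WT and 3319 ± 211 in DKO with serum/LIF and 5992 ± 94.8 and 5791 ± 83.5 after RA. It was higher in DKO with serum/LIF by 0.29 ± 0.06 (limma adjusted p = 0.00103) and not after RA (−0.05, adjusted p = 0.665). The call of (CAA)n in serum/LIF was lost with the GC_rich covariate, and its losses under the other alternatives were not tallied. (CAAAAA)n was higher in DKO in both conditions, by 0.18 ± 0.05 in serum/LIF and 0.21 ± 0.05 after RA (adjusted p = 0.0163 and 0.00302). Its call in serum/LIF was lost in 6 of 25 alternatives and that after RA in 0. The others called in serum/LIF were (CTGGGG)n with a change of 0.31, (TTA)n with 0.18, (CCCCAA)n with 0.45 and (TTAGGC)n with 0.49. The call of (CCCCAA)n was lost in 4 of 25 alternatives and that of (TTAGGC)n in 3. For (CTGGGG)n and (TTA)n this was not tallied.

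After RA the genotypes differed at 13 simple repeats, 5 higher and 8 lower in DKO, with a median of −0.02, where all tested repeats gave 5.47% higher and 5.56% lower. On the scaling of the gene table the split was 11 higher and 4 lower. The lower names were led by (CTA)n, with 944, 759 and 908 normalized counts in WT and 560, 599 and 633 in DKO, a fall of 0.54 ± 0.08 on the log2 scale (limma adjusted p = 4.64e-05). In serum/LIF (CTA)n was not called (−0.04 ± 0.08). (CGA)n fell by 0.29 ± 0.05 (adjusted p = 0.000205) with 2695, 2770 and 2450 in WT and 2117, 2152 and 2203 in DKO. The other lower names were (TCTCC)n with a change of −0.39, (CGCGG)n with −0.30, (CAACC)n with −0.25, (GAAA)n with −0.16, (T)n with −0.11 and (TG)n with −0.08. Of these calls, that of (TG)n was lost in 8 of 25 alternatives, edgeR and DESeq2 among them. That of (CAACC)n was lost in 4, those of (CGCGG)n and (T)n in 2 each and that of (TCTCC)n in 0. Besides (ATAAG)n with 0.17, (ATAGG)n with 0.62 and (CAAAAA)n with 0.21, the names higher in DKO were (CGAAG)n (0.41 ± 0.12) and the telomeric (TTAGGG)n.

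The unit TTAGGG makes up vertebrate telomeres and also occurs inside chromosomes. (TTAGGG)n had 74.7, 70.1 and 85.7 normalized counts in WT and 93.7, 83.0 and 93.9 in DKO with serum/LIF, and 50.5, 44.2 and 53.0 in WT and 81.3, 79.6 and 95.2 in DKO after RA. The WT libraries after RA were the lowest of the 4 groups and did not overlap the others. After RA it was 1.73-fold higher in DKO than in WT (0.78 ± 0.18, limma adjusted p = 0.00379), RA lowered it in WT by 0.63 ± 0.18 on the log2 scale (adjusted p = 0.00462), and the change with RA in DKO was −0.08 ± 0.18 (adjusted p = 0.75). The interaction, 0.55 ± 0.25, was not called (adjusted p = 0.229), so the effects of RA in the 2 genotypes are not shown to differ. The complement (CCCTAA)n had 73.2 to 88.3 normalized counts in every group but DKO after RA, where it had 112, 86.7 and 108, and genotype was not called for it (0.25 ± 0.17 after RA, adjusted p = 0.424). With RA it was called higher in DKO (0.42 ± 0.17, limma adjusted p = 0.0423), a call lost in 9 of 25 alternatives, and not in WT (0.13 ± 0.17, adjusted p = 0.571).

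**Figure D5:**
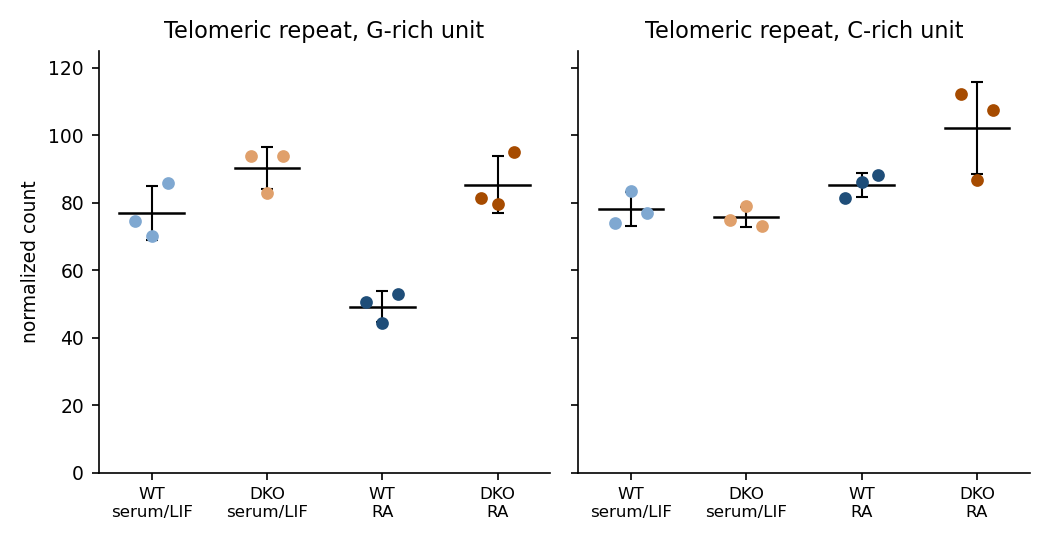
Normalized counts of the telomeric repeat under its G-rich name (TTAGGG)n (left) and its C-rich name (CCCTAA)n (right) in the 4 groups; points are libraries, bars the mean and SD of 3. Under the G-rich name the 3 WT libraries after RA, from 44.2 to 53.0, lie below every other library, and under the C-rich name they do not.

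Among genes of telomere maintenance in the gene table, 23 were tested and 4 were lower and 1 higher in DKO with serum/LIF, and 10 lower and 5 higher after RA; over all 15750 tested genes 17.8% were higher and 15.4% lower in serum/LIF, and 22.0% higher and 20.7% lower after RA. The lists of genes here and below were chosen with earlier results of these data known. Zscan4d and Zscan4f, of a family that lengthens telomeres in ES cells, were lower in DKO after RA, at −5.97 ± 0.42 and −5.32 ± 0.39 on the log2 scale (limma adjusted p = 3.55e-11 and 8.47e-11). There Zscan4d had 1069.5 ± 61.4 (SD, n = 3) normalized counts in WT and 17.1 ± 7.23 in DKO. Zscan4f had 683 ± 35.5 and 16.3 ± 2.78. Both were also called lower in DKO with serum/LIF (adjusted p = 4.8e-09 and 1.2e-08), where their levels were low, at 34.6 and 35.7 in WT and 0.782 and 1.52 in DKO. As near-identical copies they may trade reads, which leaves their separate values uncertain. Stn1, of the complex that fills in the C-rich strand, was lower in DKO after RA by 0.50 ± 0.06 (adjusted p = 3.63e-07). With RA in WT, where 41.4% of all tested genes rose and 39.2% fell, 13 of the 23 rose and 8 fell, among them Dkc1 (−2.05), part of telomerase, and the shelterin gene Terf1 (−1.26). In DKO, where 40.2% rose and 38.2% fell, 11 rose and 8 fell.

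Mismatch repair genes, which correct slippage in these repeats, fell with RA. Of 10 tested, 9 fell and 0 rose in WT, where 39.2% of all tested genes fell and 41.4% rose, with a median log2 fold change of −0.95 against 0.04 for all genes, and 9 fell and 1 rose in DKO (median −0.84), where 38.2% of all fell and 40.2% rose. Msh6 fell by 2.32 ± 0.03 in WT and by 1.81 ± 0.03 in DKO. The RA effect on Msh6 differed between genotypes (interaction 0.51 ± 0.05, limma adjusted p = 8.9e-09). In serum/LIF 5 of the 10 were lower in DKO and 0 higher, Msh6 by 0.21 ± 0.03, where 15.4% of all tested genes were lower and 17.8% higher. After RA 2 were lower and 3 higher, against 20.7% and 22.0% of all.

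Genes on a list of proteins that bind runs of CA, UG or CU in RNA, of CUG or GA, or of a single base, C or A, also fell in the majority with RA. Of 38 tested, 23 fell and 10 rose in WT (median −0.46) and 25 fell and 6 rose in DKO (median −0.47), where 39.2% of all tested genes fell and 41.4% rose in WT and 38.2% and 40.2% did in DKO. Pabpc4, which binds A runs, fell by 0.83 ± 0.04 in WT. Hnrnpf, a splicing factor on the list that is known to bind G runs, fell by 1.01 ± 0.03 in WT and by 0.98 ± 0.03 in DKO, and Tardbp, which binds UG repeats, by 0.83 ± 0.04 in DKO. Between genotypes 7 were higher and 4 lower in DKO with serum/LIF, a split near the 17.8% and 15.4% of all tested genes, among them the CUG-binding Mbnl2 (−0.63 ± 0.08) and Celf2 (0.51 ± 0.10), and 8 were higher and 12 lower after RA, against 22.0% and 20.7% of all, among them the neuronal Elavl3 (−1.41 ± 0.10) and Elavl4 (−1.78 ± 0.18). Of 9 tested helicases that unwind structures of such repeats, 7 fell and 1 rose with RA in WT and 6 fell and 2 rose in DKO, with Dhx9 at −0.92 ± 0.04 and −0.94 ± 0.04, against the same shares of all genes, 39.2% lower and 41.4% higher in WT and 38.2% and 40.2% in DKO. In DKO against WT, 1 was higher and 2 lower in serum/LIF, where 17.8% of all were higher and 15.4% lower, and 1 was higher and 1 lower after RA, where 22.0% and 20.7% were.

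Of 15 genes whose repeats expand in human disease, 9 rose and 5 fell with RA in WT, against 41.4% and 39.2% of all tested genes, and 8 rose and 4 fell in DKO, against 40.2% and 38.2%. Atn1, which carries a CAG run, rose by 1.68 ± 0.06 in WT and 1.42 ± 0.06 in DKO, and Dmpk, whose 3′ UTR carries a CTG run in human, by 2.43 ± 0.12 and 1.44 ± 0.12. Cnbp, with an intronic CCTG run in human, fell by 0.96 ± 0.03 and by 1.10 ± 0.03. In serum/LIF 4 were higher and 0 lower in DKO, with Dmpk at 0.92 ± 0.12 and Atn1 at 0.47 ± 0.06, against 17.8% higher and 15.4% lower of all. After RA 8 were higher and 1 lower, against 22.0% and 20.7%.

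The effect of RA differed between genotypes at 12 simple repeats, with a lower log2 fold change in DKO than in WT at 10 and a higher one at 2, (ATAGG)n and (CATG)n. Over all tested repeats the interaction was called higher for 2.82% and lower for 3.85%. After (ATAAG)n, the names with the smallest adjusted p were (CGA)n, which rose with RA by 0.52 ± 0.05 in WT and 0.11 ± 0.05 in DKO (limma interaction −0.41 ± 0.07, adjusted p = 0.000474), (CAA)n (interaction −0.34 ± 0.08, adjusted p = 0.00872) and (ATAGG)n (0.88 ± 0.21, adjusted p = 0.00872). With the GC_rich covariate 5 names were called, 4 lower and 1 higher. The count was 7 without replicate 1 of DKO in serum/LIF, replicate 1 of WT after RA or replicate 2 of DKO after RA, and 5 without replicate 3 of DKO after RA. The authors' deposited table called 16 simple repeats higher and 1 lower for DKO in serum/LIF, 7 and 7 after RA, 84 and 25 for RA in WT, and 69 and 32 for RA in DKO.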

How the data were processed

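Libraries of 3 replicates per group were sequenced as paired-end reads. Per the submitters' processing notes, the build was mm10 and the tools included STAR 2.7.11b, Subread 2.0.6 with featureCounts, Trim Galore 0.6.10, and DESeq2 1.44.0. How strand and multi-mapping reads were handled, which bears on every repeat, is not given in the sources used here. Library columns of the gene and repeat tables that the authors deposited hold a signal, whole reads divided by a size factor (100% of values whole within 0.01). Per the file headers they also hold the authors' log2 fold changes, a Wald score and p-values. From the log2 values, scores and p-values only signs and adjusted p-values were used. Library preparation is not stated.

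Values were taken as log2(value + 1). Names reaching 10 in 3 or more libraries were tested with limma 3.58.1 in R 4.3.3 (trend and robust empirical Bayes, 1 mean per group, all 12 libraries), with Benjamini-Hochberg adjustment over all 1170 tested repeats or 15750 tested genes, and called at an adjusted p under 0.05. Fold changes carry the limma SE; folds are ratios of group means. Replicates differed by more than sampling noise (chi-square per degree of freedom of 3.36 to 13.8 over simple repeats). Whole reads recovered from the values were used for edgeR 4.0.16 and DESeq2 1.42.0 as alternatives. Shared replicate numbers were not taken to pair the libraries: same-numbered deviations from group means correlated at −0.0671 to 0.0539 over all repeats. Over simple repeats alone these correlations ran from −0.296 to 0.321, with 5 of 18 over 0.1. In simulated counts for DKO against WT in serum/LIF, with 1161 repeats tested, the test recovered 48 of 100 changes of 1.5-fold, 84 of 100 of 2-fold and called 10 of 961 unchanged. Each name was drawn separately, so the simulation lacks deviations that names share within a library, and these rates need not hold where such deviations occur.

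Members and lists were chosen with earlier results of these data known. Names in the text are the mono- and dinucleotides, disease and telomere units, the 10 most abundant, per comparison and direction up to 5 called names with the largest fold change, groups that do not overlap and at least 50 as the mean of the higher group (10 where under 3 exist), and their complements. (CAA)n, (TGG)n, low-level names with larger falls than those led with, complementary pairs of opposite direction, names at the filter limit and the remaining names of short called lists were added after their values were seen. Of the gene lists, up to 4 called members with the smallest adjusted p per comparison are the source of those named. A few named items and their values are not reported here.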

Additional observations from a re-analysis of the deposited data

Results flagged for a closer look

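These simple repeats, and Peg10, were singled out because their response to RA differed between WT and DKO in the interaction test (limma, adjusted over all repeats or all genes). The difference, DKO minus WT in log2 fold change with RA, was −1.23 for (ATAAG)n and −1.09 for Peg10, the gene that holds its tract. It was −0.86 for (CCCG)n and −0.58 for (CCCCAA)n, both of which rose with RA in both genotypes. For (CTA)n it was −0.50, for (CGA)n −0.41 and for (CAACC)n −0.39, and these rose in WT without being called in DKO. The same held for (CGCGG)n, at −0.35, and (TG)n, at −0.13. For (CAA)n, which rose in both genotypes, it was −0.34. (TTTTA)n, at −0.22, was called lower with RA in DKO and not called in WT. The difference was positive for (ATAGG)n, at 0.88, which fell in both genotypes, and for (CATG)n, at 0.87, which fell in WT and was not called in DKO. The calls of (ATAAG)n and (CGA)n held under all 24 alternatives run, whereas that of (CATG)n was lost in 16, that of (CCCG)n in 11 and that of (TG)n in 11. Calls were also lost for (CGCGG)n in 10, (CCCCAA)n in 9, (CAACC)n in 4, (CTA)n in 2 and (ATAGG)n in 1. For (CAA)n and (TTTTA)n this was not tallied.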

How the results depend on the processing

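Of 239 summary values under an alternative, 213 lay close to the reported value and 26 moved. Calls were compared as totals, so a total could lie close while its split into higher and lower names changed. With the size factors of the gene table, the split for RA in WT went from mostly higher to mostly lower. Among 7292 values of single named repeats, 243 lost and 98 gained a call without a change of sign. Another 24 changed sign with a call in the main fit, the alternative or both. The other 6927 kept their side of the threshold, and a change of sign in a name called in neither fit was counted among them. With the size factors of the gene table, the RA change in WT became −0.26 for (TG)n, −0.019 for (CAG)n, −0.021 for (CA)n, −0.052 for (TC)n, −0.086 for (GA)n, −0.27 for (CAAAAA)n and −0.28 for (C)n; in DKO it became −0.064 for (CA)n, −0.0088 for (TA)n, −0.063 for (TC)n, −0.084 for (GA)n, −0.15 for (CAAAAA)n and −0.23 for (CAACC)n. This scaling moved the median of the CpG names, over the names tested in both fits, to 0.50 in WT and 0.27 in DKO, and that of names without CpG to −0.25 and −0.22, and to 0.043 for genotype after RA. It moved the median of all repeats down for RA, by −0.33 in WT and −0.25 in DKO, and up by 0.065 for genotype after RA.

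With the GC_rich covariate, chosen after seeing the data, the RA change in WT became −0.21 for (CAG)n, −0.43 for (CGG)n, −0.18 for (CCG)n, 0.016 for (TTTTTG)n, −0.25 for (CAACC)n and −0.90 for (CCGCG)n, and in DKO −0.053, −0.36, −0.14 for the first 3, −0.37 for (CAACC)n and −0.85 for (CCGCG)n. Calls became 2 for genotype in serum/LIF, 24 and 44 for RA in WT and DKO and 5 for the interaction, and medians 0.10 (CpG, WT), 0.12 (CpG, DKO) and 0.10 (no CpG, WT). Calls for genotype in serum/LIF were 8 without trend and robust settings and 7 with only the groups compared; the interaction gave 6 without trend and robust settings and takes all 4 groups in any case. Using the highest single library of the first group, the no-CpG medians were 0.091 for genotype in serum/LIF, 0.14 for RA in WT and 0.076 for RA in DKO. Without replicate 2 of WT after RA the no-CpG median for RA in WT was 0.11. Leaving out 1 library at a time gave 4 to 15 calls for genotype in serum/LIF, 9 to 16 after RA, 100 to 112 and 86 to 104 for RA in WT and DKO, and 5 to 14 for the interaction. The cause of these shifts was not tested.

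The replicate block, fitted although shared numbers were not taken as pairs (5 of 18 same-numbered pairs correlated over 0.1 over simple repeats), gave 14, 15, 110, 99 and 11 calls in place of 14, 13, 111, 101 and 12. Depth limits names near the filter, where a few reads decide a value.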
